A study of Mus musculus with 12 samples.

Results

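The genes described here are 10 colony stimulating factors, related growth factors and their receptors, taken by symbol from a table of 56832 gene entries: the ligands Csf1, Il34, Csf2, Flt3l and Kitl, and the receptors Csf1r, Csf2ra, Csf2rb, Csf3r and Flt3. They were chosen by name, and all 10 had a row in the table. Their transcripts were counted by RNA sequencing in 12 libraries of sorted F4/80+ marrow cells of mice. Males and females of either condition, leukemic or non-leukemic, gave 3 libraries each. Leukemic mice had received cells of bcCML, a transplantable model of blast-crisis chronic myeloid leukemia, and were sampled at day 11, in late disease. Non-leukemic mice were healthy, and strain, age and any conditioning before transplant are not given in the sources used here. The sort kept cells that were positive for CD45 and F4/80 and negative for Ly6g and Ly6c, and names no marker that would set transplanted cells apart from host cells.

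Growth factors of this family reach marrow cells as secreted or membrane-bound proteins and act through 2 kinds of receptor. Csf1r, Flt3 and Kit are receptor tyrosine kinases. Csf1r is bound by Csf1 and Il34 and keeps macrophages alive, Flt3 is bound by Flt3l on early progenitors and on precursors of dendritic cells, and Kit is bound by Kitl on stem cells and mast cells. The receptor for GM-CSF, the product of Csf2, pairs the alpha chain Csf2ra with the beta chain Csf2rb, which also serves interleukin 3 and interleukin 5, while the G-CSF receptor Csf3r works as a pair of identical chains. Csf2rb and Csf3r have no kinase of their own and signal through JAK kinases and STAT factors.

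Mouse carries a second beta chain, Csf2rb2, which binds interleukin 3 and lies beside Csf2rb on chromosome 15. The start of both coding sequences is shown because the likeness of these genes limits how well reads can be assigned to either. Each line gives the first 90 coding bases, 5′ to 3′, from GENCODE M21 transcripts of the build GRCm38, with the 3 positions that differ in capitals.
Csf2rb: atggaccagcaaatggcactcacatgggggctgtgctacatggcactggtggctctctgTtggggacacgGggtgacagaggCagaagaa
Csf2rb2: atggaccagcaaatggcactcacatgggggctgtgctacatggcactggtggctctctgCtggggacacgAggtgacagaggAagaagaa
Over the 2628 aligned coding bases without a gap, 2503 were identical, which is 95.24%. Of all windows of 50 coding bases in Csf2rb, 26.03% occurred unchanged in Csf2rb2. Over all exonic bases, which is what was counted, the shared windows were 12.27% of those of Csf2rb and 18.44% of those of Csf2rb2. A read from such a window fits both genes, and how it was counted is not given in the sources used here, so levels of Csf2rb and Csf2rb2 are uncertain over those windows.

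The promoters of the members whose levels passed the test and that the RefSeq table of the build GRCm38.p6 holds are shown next. Each line gives the 250 bases before the gene's start, 5′ to 3′ on the gene's strand, with matches to the motifs named below in capitals. The Csf1 window is chr3:107760470-107760719 on the minus strand, the Flt3 window is chr5:147400490-147400739 on the minus strand, and the Csf2ra window is chr19:61228419-61228668 on the minus strand.
Csf1: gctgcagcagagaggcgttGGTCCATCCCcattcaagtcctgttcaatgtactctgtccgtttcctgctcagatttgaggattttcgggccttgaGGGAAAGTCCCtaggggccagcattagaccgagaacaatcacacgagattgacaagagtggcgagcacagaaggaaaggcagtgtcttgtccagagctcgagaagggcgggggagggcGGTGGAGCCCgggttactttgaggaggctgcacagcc
Flt3: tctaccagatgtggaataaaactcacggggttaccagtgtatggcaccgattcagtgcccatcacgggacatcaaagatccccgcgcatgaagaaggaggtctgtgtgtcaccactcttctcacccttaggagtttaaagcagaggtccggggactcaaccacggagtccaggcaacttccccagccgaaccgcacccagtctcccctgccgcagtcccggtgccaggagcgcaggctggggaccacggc
Csf2ra: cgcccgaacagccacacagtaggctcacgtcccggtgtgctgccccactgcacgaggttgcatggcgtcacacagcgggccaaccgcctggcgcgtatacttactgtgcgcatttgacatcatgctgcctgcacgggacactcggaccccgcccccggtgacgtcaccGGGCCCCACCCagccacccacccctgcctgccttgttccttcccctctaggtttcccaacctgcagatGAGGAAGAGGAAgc
Both strands were searched for 8 motifs in the promoters of 7 members, namely Csf1, Csf2, Csf3r, Flt3, Flt3l, Kitl and Csf2ra. The kB form bound by NF-kB, GGG and CC with any 5 bases between them, occurred in 5 of the 7 member promoters and in 45.8% of all 32851 promoters of this length. Its classical case, with ACTTT as the middle bases, was found in the Csf1 promoter alone of the 7, read from the other strand at bases 154 to 145 before the start, and in 0.14% of all promoters. Csf2ra held GAGGAA, the core bound by the myeloid factor PU.1, in 2 adjacent copies ending 3 bases before the start, a motif found also in the Csf3r promoter and in 23.3% of all promoters. The Flt3 window held no match to any of the 8. The motifs TTCNNNGAA of STAT factors (7.02% of all promoters), TGANTCA of AP-1 (6.75%), CACGTG of E-box factors (6.02%) and TGTGGT of RUNX factors (14.0%) were not in the windows of the 7 members. The interferon response element, taken as GAAA, any 2 bases and GAAA again (2.98%), occurred in Flt3l alone. A match describes letters in these windows and is no evidence of binding.

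Total counts ran from 16911827 to 26611831 in non-leukemic and from 22437689 to 30014855 in leukemic libraries, and levels are given as CPM, counts scaled to these totals. A count of 0 allows up to 3 counts in a library, which is 0.1 to 0.177 CPM, and such limits cover counting error only. Adgre1, the gene of F4/80, was at 75.9 to 258 CPM in non-leukemic and 28.4 to 60.6 CPM in leukemic libraries, and Ptprc, the gene of CD45, at 259 to 811 CPM over all 12. Ly6g and Ly6c2, genes of the antigens sorted against, were present at 4.76 to 77.9 and 121 to 449.7 CPM. Markers of the labelled cell type, the macrophage, were all detected, and so were markers of neutrophils, basophils, T cells and progenitors, given below beside the members. Male non-leukemic replicate 3 and female leukemic replicate 1 stood apart from the other libraries of their groups, the first with the highest Adgre1 level and the latter with the fewest genes detected, 17891. In bulk libraries, fewer cells of a type and less RNA per cell cannot be told apart. No source used here ties libraries to animals, so each p measures the spread between libraries.

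With leukemia, Csf1 and Flt3 transcripts rose and Csf1r and Csf2ra transcripts fell. Each leukemic library had more Csf1 and less Csf2ra than any non-leukemic one. Levels of Csf2, Flt3l, Kitl, Csf2rb and Csf3r did not pass the test, and Il34 was close to absent. Of the 9 members with enough counts to be tested, 4 passed at an adjusted p under 0.05 (edgeR quasi-likelihood test with sex as a term, Benjamini-Hochberg adjustment over 15758 genes), where 17.9% of all genes tested passed. Of these members 2 rose, where 8.71% of all genes did, and 2 fell, where 9.20% did. The median log2 fold change was 0.04 over the 9 members and -0.01 over all genes tested. Of the members tested, Csf1 and Csf2ra had conditions that did not overlap in CPM, as did 8.68% of all genes tested (5.05% with leukemic libraries above and 3.63% with them below). Without both libraries that stood apart, more genes passed over all, 4717 of 16300 tested against 2822 of 15758 with all libraries. In that fit 5 members passed by edgeR: Csf1 (1.88, adjusted p = 6.39e-05), Flt3 (1.31, adjusted p = 0.000593) and Csf2rb (0.88, adjusted p = 0.0102) rose, and Csf2ra (-0.61, adjusted p = 0.00326) and Csf1r (-0.63, adjusted p = 0.0436) fell. The plot of member levels by library shows both patterns beside the spread within each group of 3.

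**Figure D1:**
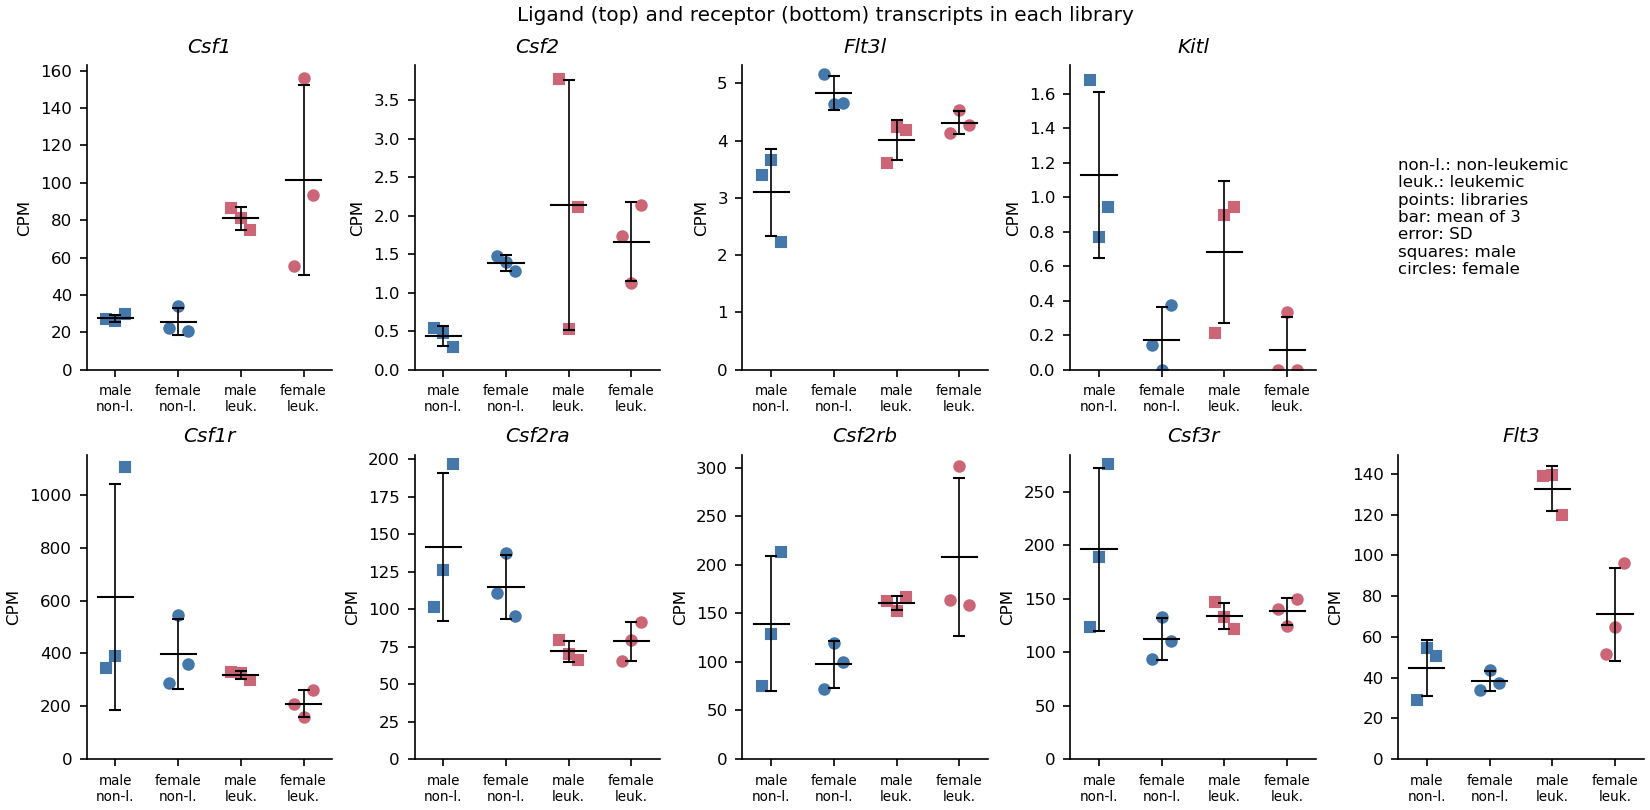
CPM (vertical axes, linear from 0) of 9 members in each of 12 libraries, with blue for non-leukemic and red for leukemic, squares for males and circles for females, a bar at the mean of 3 libraries and error bars of 1 SD. All red points lie above all blue points for Csf1 and below them for Csf2ra, and 1 blue square stands far above the rest for Csf1r, at 1107 CPM.

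Among the ligands, Csf1, which encodes M-CSF and lies on chromosome 3, was the one with the most transcripts. Its lowest, median and highest levels were 20.5, 26.4 and 34.1 CPM in the 6 non-leukemic libraries, and 55.3, 84.1 and 156 CPM in the 6 leukemic libraries. The lowest leukemic value, in female replicate 1, was above the highest non-leukemic value, in female replicate 2. The mean rose from 26.6 ± 4.89 to 91.3 ± 34.3 CPM (SD, n = 6 per condition), which edgeR put at 1.68 ± 0.215 (SE) on the log2 scale with an adjusted p of 0.0002. The counts behind these levels were 439 to 688 per non-leukemic and 1661 to 4166 per leukemic library. Leaving out any 1 library kept the log2 fold change of Csf1 between 1.5 and 1.78, with adjusted p from 0.000121 to 0.000817 by edgeR. No stretch of 50 exonic bases of Csf1 is shared with another annotated gene, and no other gene's exons overlap it in GENCODE M21.

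Il34, on chromosome 8, encodes the other ligand of Csf1r, which keratinocytes and neurons are known to make. All libraries but male leukemic replicate 1 had no Il34 count, and that library had 3 counts, or 0.105 CPM. Il34 was too low for the fit over all genes. An exact two-sided permutation test over all arrangements of the libraries gave p = 1. With counts in 1 library alone it could give no other value, so it decides nothing. Of both ligands that Csf1r binds, transcripts of Csf1 alone were thus detected in more than 1 library at this depth.

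Csf2 encodes GM-CSF and lies on chromosome 11. Its counts were low, 7 to 34 per non-leukemic and 14 to 108 per leukemic library. The lowest, median and highest levels were 0.301, 0.911 and 1.48 CPM in non-leukemic and 0.524, 1.92 and 3.78 CPM in leukemic libraries. The conditions overlapped, and 4 leukemic libraries were above all non-leukemic ones. The log2 fold change of 1.18 ± 0.538 (SE) did not pass (adjusted p = 0.161, edgeR). In GENCODE M21 an antisense gene, Gm12223, covers 12% of the exonic bases of Csf2, and without strand in the reads the 2 cannot be separated there.

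Flt3l and Kitl, the ligands of Flt3 and Kit, were low in both conditions. Flt3l ranged from 2.24 to 5.17 CPM in non-leukemic and from 3.61 to 4.53 CPM in leukemic libraries, with medians of 4.15 and 4.21 CPM. All leukemic values of Flt3l fell inside the non-leukemic range, and its log2 fold change was 0.04 ± 0.211 (adjusted p = 0.936, edgeR). Kitl ranged from 0 to 1.68 CPM in non-leukemic and from 0 to 0.943 CPM in leukemic libraries, with at most 37 counts in a library. Female libraries were at no more than 0.376 CPM, male non-leukemic ones at 0.769 CPM or more and male leukemic ones at 0.210 to 0.943 CPM. The log2 fold change of Kitl between conditions was -0.79 ± 0.925 (adjusted p = 0.629, edgeR). On chromosome 7, the annotated gene Gm45713 shares 22.07% of the exonic bases of Flt3l on the same strand, and it had no count in any library.

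Among the receptors, Csf1r, on chromosome 18, had the highest level and the widest spread. Its lowest, median and highest levels were 289.7, 374 and 1107 CPM in non-leukemic and 160 (female replicate 2), 281 and 329 CPM in leukemic libraries. The conditions overlapped: 3 leukemic libraries, all of them female, were below every non-leukemic library, and the other leukemic libraries, the male ones, were not. The mean went from 506 ± 306.7 to 264 ± 68.4 CPM (SD, n = 6), and the log2 fold change, -1.03 ± 0.290 (SE), passed with an adjusted p of 0.0268 by edgeR.

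The Csf1r call rested on the set of libraries more than the other calls did. Male non-leukemic replicate 3, at 1107 CPM, held 25747 of the 66501 non-leukemic Csf1r counts, and without it the log2 fold change was -0.66 (adjusted p = 0.0332, edgeR). The call was lost without male leukemic replicate 1, 2 or 3, without female leukemic replicate 2 or without female non-leukemic replicate 2, with adjusted p from 0.0631 to 0.0763 by edgeR and log2 fold changes from -1.0 to -0.91. Exons of Hmgxb3 lie opposite 15.12% of the exonic bases of Csf1r, and Hmgxb3 itself was at 34.4 to 48.3 CPM in non-leukemic and 33.5 to 59.2 CPM in leukemic libraries. Reads of the 2 genes cannot be separated over those bases.

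Csf2ra, the ligand-specific chain of the GM-CSF receptor, lies on chromosome 19. Its lowest, median and highest levels were 95.3, 119 and 197 CPM in non-leukemic and 65.2, 74.6 and 91.2 CPM in leukemic libraries. All 6 leukemic libraries were below all 6 non-leukemic ones. The mean fell from 128 ± 37.1 to 75.1 ± 9.99 CPM (SD, n = 6), with an edgeR estimate of -0.85 ± 0.191 (SE, log2 scale) and an adjusted p of 0.00809. The call held without each library in turn, with adjusted p of at most 0.0315, and was lost against a minimum change of 1.5-fold (adjusted p = 0.255, edgeR).

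Csf2rb, the signalling chain of the same receptor, did not follow Csf2ra. Its lowest, median and highest levels were 72.3, 109.8 and 213 CPM in non-leukemic and 152 (male replicate 2), 163 and 302 CPM in leukemic libraries. All 6 leukemic libraries were above the non-leukemic median, but 1 alone, female replicate 2, was above every non-leukemic library. The log2 fold change of 0.56 ± 0.285 did not pass (adjusted p = 0.215, edgeR). The call turned on male non-leukemic replicate 3: without it the change was 0.84 with an adjusted p of 0.0155 by edgeR.

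Csf3r, the receptor for G-CSF that neutrophils carry, lies on chromosome 4. It ranged from 93.3 to 276 CPM in non-leukemic and from 122 to 149.6 CPM in leukemic libraries, with medians of 128 and 136 CPM. All leukemic values lay inside the non-leukemic range. The log2 fold change was -0.21 ± 0.236 (adjusted p = 0.619, edgeR), and 0.02 without male non-leukemic replicate 3. Of the windows of 50 exonic bases of Csf3r, 10.75% are shared with other annotated genes, 8.84% with AC105061.2, so its level is uncertain there.

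Flt3, on chromosome 5, rose. Its lowest, median and highest levels were 28.8, 40.4 and 54.5 CPM in non-leukemic and 51.8, 108 and 139 CPM in leukemic libraries. In 5 of 6 leukemic libraries Flt3 was above every non-leukemic value, and the remaining library, female leukemic replicate 1, lay just under the highest of them, male non-leukemic replicate 2. The mean went from 41.5 ± 9.999 to 102 ± 37.5 CPM (SD, n = 6), with an edgeR estimate of 1.15 ± 0.191 (SE, log2 scale) and an adjusted p of 0.00124. The call held without each library in turn, with log2 fold changes from 1.04 to 1.25 and adjusted p of at most 0.00421.

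**Figure D2:**
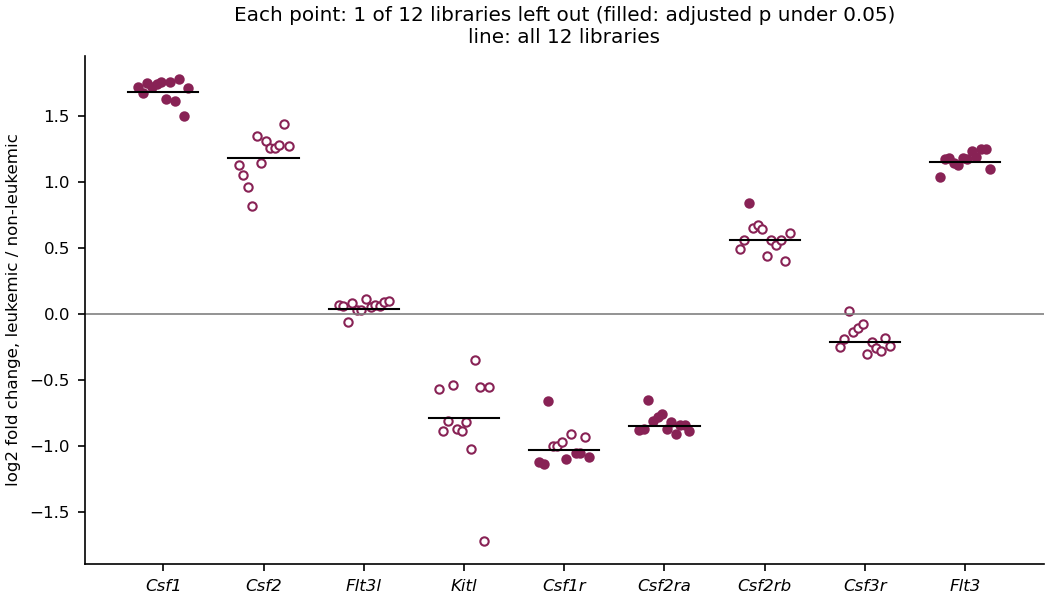
Log2 fold change of leukemic over non-leukemic (vertical axis) for 9 members, 1 point for each of 12 fits that leave out 1 library, filled where the edgeR adjusted p was under 0.05, with a line at the value from all libraries. Points are all filled for Csf1, Flt3 and Csf2ra, mixed for Csf1r, and 1 of the 12 is filled for Csf2rb.

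Compared per kilobase of exon, a scale on which genes can be set beside each other, Csf1r had the highest mean in both conditions, though not in each library. Non-leukemic means were 87.6 CPM per kb for Csf1r, 44.6 for Csf2ra, 42.7 for Csf3r, 16.3 for Csf2rb, 6.72 for Flt3, 5.03 for Csf1, 1.14 for Csf2, 1.02 for Flt3l and 0.110 for Kitl. In that order Csf1r, Csf2ra and Csf3r overlapped over the 6 libraries, as did Flt3 and Csf1 and as did Csf2 and Flt3l, while every Csf2rb value (9.94 to 29.3 CPM per kb) was above every Flt3 value (4.66 to 8.82 CPM per kb). Leukemic means were 45.6 CPM per kb for Csf1r, 37.7 for Csf3r, 26.2 for Csf2ra, 25.3 for Csf2rb, 17.3 for Csf1 and 16.5 for Flt3. The leukemic ranges of Csf1r (27.6 to 56.9 CPM per kb), Csf3r (33.8 to 41.4) and Csf2rb (20.9 to 41.5) overlapped. In female leukemic libraries the mean of Csf3r, 38.3 CPM per kb, was above that of Csf1r, 36.2, and in female replicate 2 Csf2rb, at 41.5, was above Csf1r, at 27.6. Csf1 ranged from 10.5 to 29.5 CPM per kb there and overlapped both Flt3 (8.39 to 22.6 CPM per kb) and Csf2rb. Exon lengths come from GENCODE M21 and not from the build used for counting. Windows of 50 exonic bases shared with other genes (10.75% for Csf3r and 14.27% for Csf1r) leave the order of means this close uncertain.

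Ratios of members within a library do not depend on its total count, and were chosen after values had been seen, so they carry no test. Setting Csf1 or Flt3, which rose, over Csf1r, which fell, by itself favours separated ratios, as does dividing by Csf2ra, which fell. How often other gene pairs separate was not counted. For each Csf1r count there were 0.0267 to 0.0782 Csf1 counts in non-leukemic and 0.248 to 0.978 in leukemic libraries. This ratio was thus higher in every leukemic library than in any non-leukemic one. It was highest in female leukemic replicate 2, where Csf1, at 156 CPM, came near Csf1r, at 160 CPM. Flt3 counts per Csf1r count went from a range of 0.0460 to 0.140 to one of 0.251 to 0.429, and these ranges did not overlap. The 2 chains of the GM-CSF receptor showed the same: there were 0.654 to 1.09 Csf2rb counts per Csf2ra count in non-leukemic and 1.74 to 3.81 in leukemic libraries. Conditions overlapped for Csf3r counts per Csf1r count, at 0.244 to 0.487 and 0.405 to 0.781, and for Csf2rb2 counts per Csf2rb count, at 0.125 to 0.271 and 0.175 to 0.263.

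**Figure D3:**
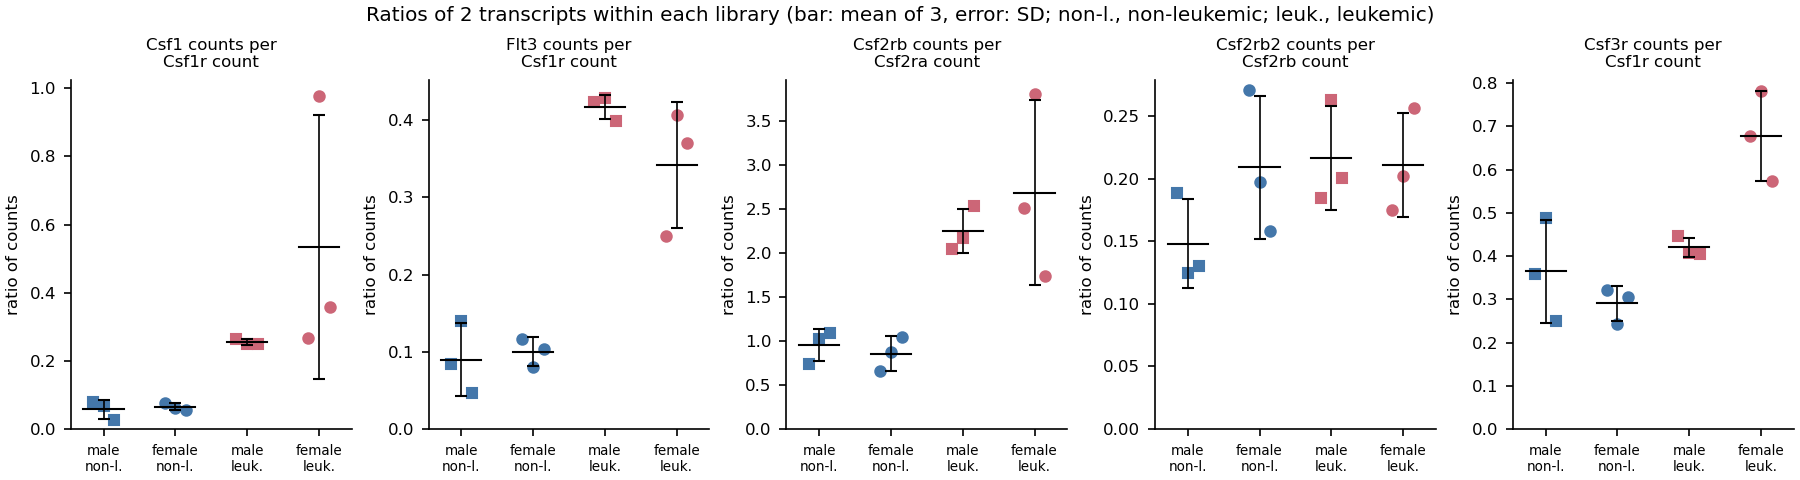
Ratio of the counts of 2 genes within each library (vertical axes, linear from 0) for 5 pairs, with blue for non-leukemic, red for leukemic, squares for males, circles for females, a bar at the mean of 3 and error bars of 1 SD. Red and blue points do not overlap for Csf1 per Csf1r, Flt3 per Csf1r and Csf2rb per Csf2ra, and overlap for the other pairs.

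Sexes were compared to see whether leukemia went with the same member changes in each. In males Csf1, Flt3 and Csf2ra passed, 3 of 9 members where 7.37% of all genes passed (3.34% higher and 4.04% lower). In females Csf1 alone passed, where 8.43% of all genes did (3.84% higher and 4.59% lower). Csf1 went from 27.5 ± 1.87 to 80.9 ± 6.05 CPM in males and from 25.7 ± 7.33 to 101.6 ± 50.8 CPM in females (SD, n = 3). Its log2 fold changes were 1.40 ± 0.291 in males (adjusted p = 0.0131) and 1.95 ± 0.295 in females (adjusted p = 0.00287) by edgeR. Among female leukemic libraries the 3 Csf1 values, 55.3, 156 and 93.4 CPM, were spread far wider than the male values of 86.7, 81.4 and 74.6 CPM.

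Flt3 was at 139, 139 and 120 CPM in male leukemic replicates 1 to 3 and at 51.8, 64.9 and 96.4 CPM in female ones. Its log2 fold change was 1.41 ± 0.259 in males (adjusted p = 0.00669) and 0.88 ± 0.256 in females (adjusted p = 0.0546) by edgeR. The direct comparison of female with male leukemic libraries gave -0.78 ± 0.255 for Flt3, with an unadjusted p of 0.0104 and an adjusted p of 0.486 by edgeR. Csf2ra changed by -1.15 ± 0.251 in males (adjusted p = 0.0171, edgeR), and its change in females was -0.55 ± 0.249 (adjusted p = 0.207, edgeR). For Csf1r the values were -1.14 ± 0.425 in males and -0.92 ± 0.423 in females, and neither passed (adjusted p = 0.14 and 0.212, edgeR). Some calls within a sex turned on 1 library. In males the Csf1 call was lost without non-leukemic replicate 2 (adjusted p = 0.0596, edgeR) and the Csf2ra call without leukemic replicate 1, 2 or 3 (adjusted p from 0.0532 to 0.0914). In females Flt3 passed without male non-leukemic replicate 1 or 3, which share the estimate of spread, or without female leukemic replicate 1 (adjusted p from 0.0127 to 0.0497, edgeR).

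Csf3r had estimates of opposite sign in the sexes, -0.72 ± 0.269 in males and 0.31 ± 0.268 in females, neither past the test (adjusted p = 0.139 and 0.549, edgeR). Male non-leukemic libraries held 123, 189 and 276 CPM of Csf3r and female non-leukemic ones 93.3, 133 and 110 CPM, while the male and female leukemic means were 134 ± 12.4 and 138 ± 12.6 CPM (SD, n = 3). Csf2rb changed by 0.03 ± 0.351 in males and 1.08 ± 0.355 in females (adjusted p = 0.98 and 0.0857, edgeR). For Csf2 the estimates were 2.13 ± 0.687 in males and 0.28 ± 0.649 in females (adjusted p = 0.0884 and 0.85, edgeR). Its non-leukemic libraries were at 0.301 to 0.544 CPM in males and 1.278 to 1.483 CPM in females, a comparison that no member passed by edgeR. Without male non-leukemic replicate 1, Csf3r passed in males (-0.96, adjusted p = 0.0346) and Csf2rb in females (1.12, adjusted p = 0.0286). Without male non-leukemic replicate 3, Csf2rb (1.08, adjusted p = 0.0328) and Csf1r (-0.93, adjusted p = 0.0347) passed in females, and without male leukemic replicate 2 Csf2 passed in males (2.60, adjusted p = 0.0395), all by edgeR.

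No difference between the sexes in the effect of leukemia passed for any member, and none of the 15758 genes did (0.00%). The lowest unadjusted p among members was that of Csf3r, with a difference of female and male effects of 1.03 ± 0.380 (unadjusted p = 0.0188, adjusted p = 0.819, edgeR), the 1 member among 925 genes at an unadjusted p under 0.05. DESeq2 called 23 genes in that comparison. Female against male libraries gave 0 calls by edgeR as well, among non-leukemic libraries (0.00%, 769 genes at an unadjusted p under 0.05, of which 2 were members, Csf3r and Csf2) and among leukemic libraries (0.00%, 1370 genes, of which 1 was a member, Flt3). DESeq2 called 34 and 120 genes there. With 3 libraries a group these fits did not call Xist either (adjusted p of 0.599 and 0.382), so a count of 0 does not show that the sexes were alike.

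**Figure D4:**
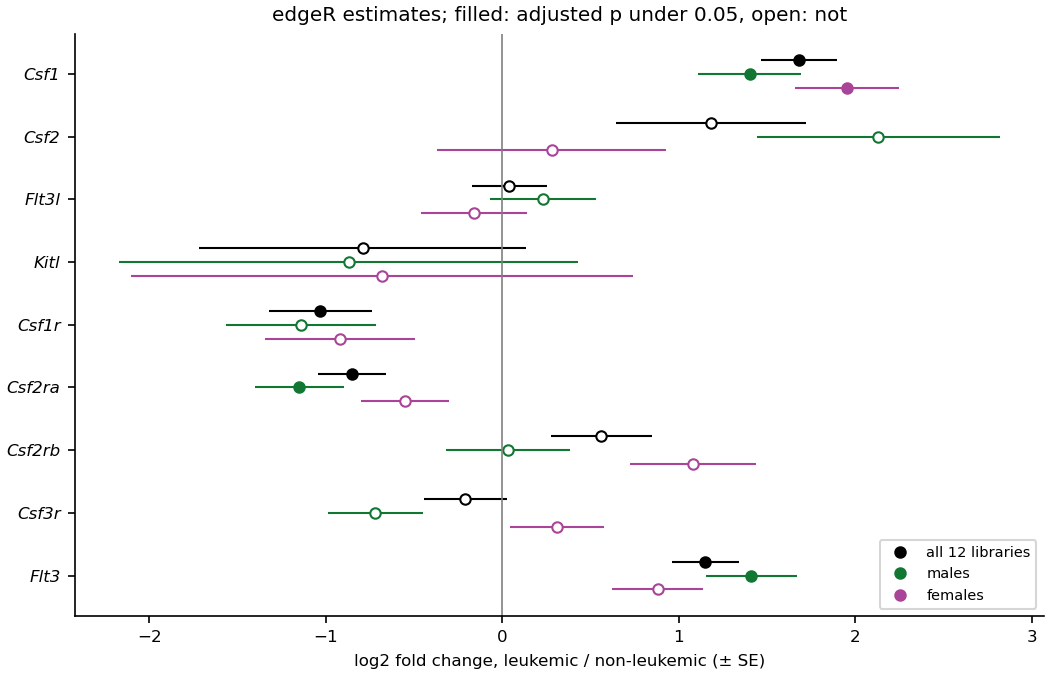
Log2 fold change of leukemic over non-leukemic with its SE (horizontal axis) for 9 members, in all 12 libraries (black), males (green) and females (purple), filled where the edgeR adjusted p was under 0.05. Csf1 is filled in all 3 fits, and the male and female points of Csf3r lie on opposite sides of 0.

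Partner genes of the members were counted from a list of 7. Transcripts of Csf3, which encodes G-CSF, and of Il3 were at 0 in every library, and Il5 had at most 2 counts in a library. Il3ra, the alpha chain that pairs with the beta chains for interleukin 3, and Csf2rb2 rose, 2 of the 4 genes tested, where 8.71% of all genes rose. Il3ra was at 9.20 to 16.0 CPM in non-leukemic and 24.0 to 48.8 CPM in leukemic libraries, and changed by 1.08 ± 0.207 on the log2 scale (adjusted p = 0.00308, edgeR). Csf2rb2 was at 14.2 to 27.8 and 28.6 to 61.0 CPM, a change of 0.89 ± 0.223 (adjusted p = 0.0148, edgeR), and neither gene overlapped between conditions, as was so with leukemic libraries above for 5.05% of all genes tested. Kit, the receptor of Kitl, was at 153 to 208 and 129 to 298 CPM and did not pass (0.39 ± 0.155, adjusted p = 0.104, edgeR).

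Genes that act below the receptors were counted from further lists, beside 17.9% of all genes tested that passed, 8.71% higher and 9.20% lower. From a list of 21 genes that carry or damp the Csf1r signal, 2 rose and 2 fell, a share near that of all genes, and the median was -0.06 on the log2 scale. The suppressor Socs1 (1.46 ± 0.223, adjusted p = 0.00071) and the adaptor Dok2 (0.95 ± 0.152, adjusted p = 0.00093) rose, and the adaptor Shc1 (-0.59 ± 0.150, adjusted p = 0.0163) and Fgr, a kinase of the Src family named after its value was seen, fell (edgeR). From 18 genes of JAK and STAT signalling and its targets, 7 rose and 1 fell, with a median of 0.36. Besides Socs1, Pim2, a survival kinase, rose from 28.4 ± 5.42 to 71.5 ± 13.6 CPM (1.26 ± 0.173, adjusted p = 0.000325) by edgeR. Cish, Socs2 and Socs3, feedback genes of STAT factors, and Myc rose too, and Bcl2l1, a survival gene also abundant in red cell precursors, was the one that fell, all 5 named after their values were seen. Stat5a and Stat5b themselves had log2 fold changes of 0.20 ± 0.136 and 0.04 ± 0.142 and did not pass.

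Of 12 transcription factors known to act on Csf1r or macrophage genes, 3 rose and 1 fell, and the median was 0.16 on the log2 scale. Myb (0.62 ± 0.134, adjusted p = 0.00644) and Runx1 (0.74 ± 0.189, adjusted p = 0.0161), factors of progenitors, rose along with Cebpa (0.81 ± 0.244, adjusted p = 0.0361) by edgeR. Spi1, which encodes PU.1, had a change of -0.25 ± 0.227 (adjusted p = 0.524, edgeR). Cebpa, Spi1, Adam17, Stat5a and Stat5b are named here after their values were seen. Of 10 genes for proteases that free ligands or receptors from the membrane and for their inhibitors, 2 rose and 2 fell, with a median of -0.08. Mmp14 (-1.18 ± 0.266, adjusted p = 0.00811) and Mmp9 (-1.21 ± 0.289, adjusted p = 0.0115) fell by edgeR. Adam17, a protease that sheds Csf1r, rose (0.49 ± 0.129, adjusted p = 0.0186, edgeR), and Timp1, the other gene that rose, was barely present, at 0 to 0.118 CPM in non-leukemic and 0.0749 to 1.96 CPM in leukemic libraries.

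Markers of several cell types that the sort could hold also differed between conditions. Of 14 markers of macrophages that depend on Csf1r, 7 fell and none rose by the same edgeR test, and their median was -1.23 on the log2 scale. Their summed level was 4984 to 14771 CPM in non-leukemic and 2264 to 4016 CPM in leukemic libraries. Lyz2 was the largest part of these sums, at 3718.9 to 10643.5 CPM in non-leukemic and 1454.9 to 2958.4 CPM in leukemic libraries. The sums thus mostly follow this 1 gene and say less about the other markers. Ranges of Adgre1 did not overlap between conditions, whereas those of C1qb, at 186 to 985 and 94.7 to 311 CPM, did. Male non-leukemic replicate 3 had the highest sum, as it had for the monocyte, dendritic and neutrophil lists. It was also highest for Csf1r, Csf2ra and Csf3r. Of 8 dendritic cell markers, 4 fell and 1 rose, with sums of 186 to 338 and 98.2 to 183 CPM, and of 9 monocyte markers 1 fell and 1 rose, with sums of 744 to 1919 and 709 to 1054 CPM. None of these markers was at 0 in all libraries. Their part in the lower Csf1r and Csf2ra levels was not tested.

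Neutrophil markers, which go with cells that carry Csf3r, fell in 8 of 13 and rose in none, with sums of 28809 to 67161 CPM in non-leukemic and 12826 to 27705 CPM in leukemic libraries. These ranges did not overlap, whereas those of Csf3r did. Of 9 progenitor markers 7 rose and none fell, with sums of 625 to 1025 and 1106 to 1899 CPM. Female leukemic replicate 1 had the lowest leukemic value of both the progenitor sum and Flt3. Female leukemic replicate 2 had the highest progenitor sum, 1899 CPM, and 64.9 CPM of Flt3, where male leukemic libraries had 120 to 139 CPM. The sum leans on its most abundant genes: Gata2 reached the highest level of the 9, at 248.1 to 699.7 CPM in leukemic libraries. It is therefore no even measure of progenitors. Whether progenitor transcripts had a part in the higher Flt3 level was not tested.

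Of 12 markers of eosinophils, basophils and mast cells, 6 rose and 2 fell, with sums of 5590 to 11114 CPM in non-leukemic and 11182 to 36156 CPM in leukemic libraries. Those that rose, Mcpt8, Cpa3, Fcer1a, Ms4a2, Prss34 and Cd200r3, are genes of basophils or mast cells, and those that fell, Ccr3 and Ear2, are genes of eosinophils. Female leukemic replicate 2 had the highest sum, 36156 CPM, the highest progenitor sum, 1899 CPM, and also the highest Csf1, Csf2rb, Csf2rb2 and Il3ra levels of all 12 libraries. The part of either cell group in the levels of Csf1, the beta chains and Il3ra was not tested. T and NK cell markers rose in 13 of 13, with sums of 135 to 348 CPM in non-leukemic and 729.7 to 2181 CPM in leukemic libraries. The part of T and NK cells in the member levels was not tested.

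Red cell precursor markers fell in 9 of 9, with sums of 14348 to 18893 CPM in non-leukemic and 552 to 1322 CPM in leukemic libraries. B cell markers passed in none of 8, with sums of 420.2 to 828 and 359.8 to 822 CPM. Stromal and endothelial cells are known sources of Csf1 and Kitl. Of their 12 markers 8 could be tested: Pecam1 rose, Col1a1 and Bglap fell, and the sums were 101.3 to 668 CPM in non-leukemic and 77.1 to 213 CPM in leukemic libraries, with male non-leukemic replicate 3 the highest. The part of these shifts in the member levels was not tested.

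**Figure D5:**
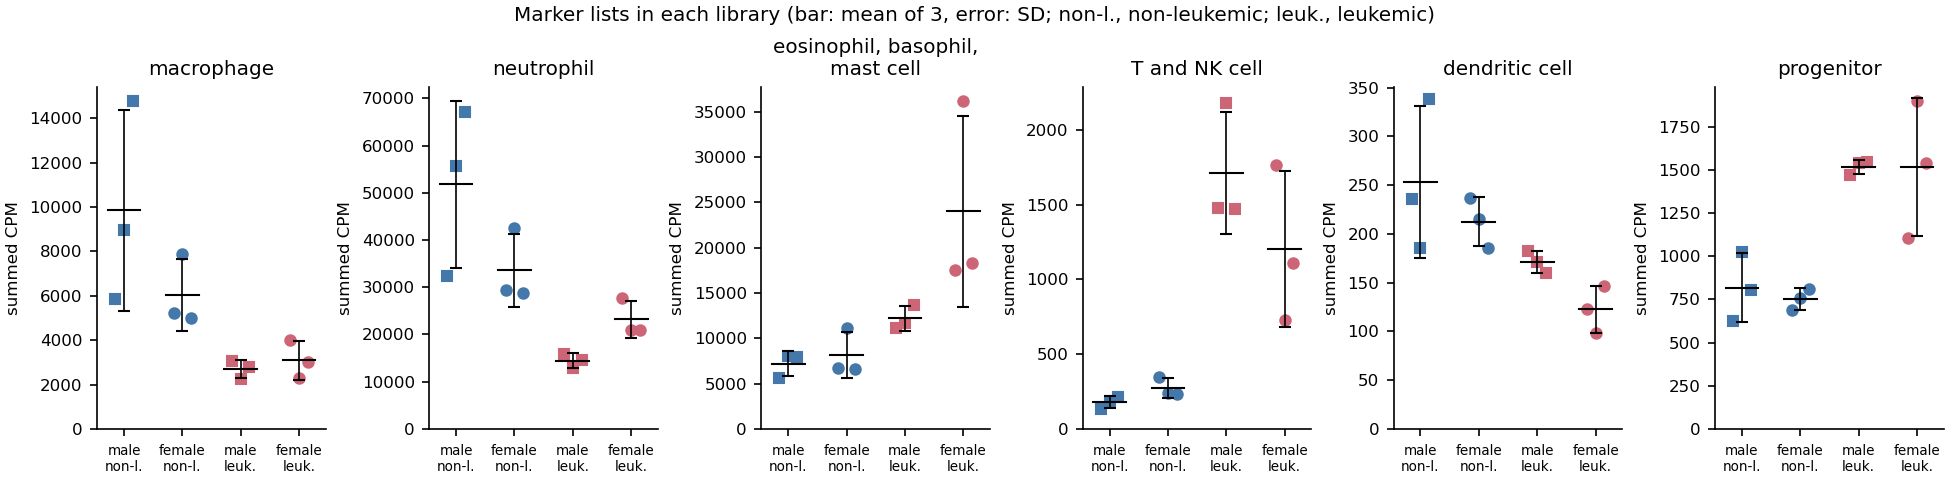
Summed CPM of 6 marker lists (vertical axes, linear from 0) in each of 12 libraries, with blue for non-leukemic, red for leukemic, squares for males, circles for females, a bar at the mean of 3 and error bars of 1 SD. Red points lie below blue ones for macrophage, neutrophil and dendritic lists and above them for basophil, T and NK and progenitor lists, with 1 red circle far above the rest, at 36156 CPM, in the list of eosinophils, basophils and mast cells.

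The genes whose levels followed each member most closely from library to library were ranked by Pearson's r over 12 libraries of log2 CPM with group means removed, among 7988 genes. These values describe libraries that share depth and cell mix, carry no test, and lean on the libraries that stood apart. Csf1 was followed most closely by Myo1c (r = 0.955), Vps52 (0.942) and Zdhhc7 (0.927), and Flt3 by Ckap4 (0.916), Plcg2 (0.914) and Plekha3 (0.913). For Csf1r the nearest were Themis2 (0.983), Vsir (0.983) and Myadm (0.981), and for Csf3r they were Phactr2 (0.983), Tcirg1 (0.974) and Pirb (0.971). Csf2ra was followed by Actn1 (0.968), Riox1 (0.958) and Olfm1 (0.954), and Csf2rb by Oaz2 (0.958) and Tmem229b (0.954). None of these genes was among the nearest of more than 1 member.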

How the data were processed

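RNA of sorted cells was amplified from 1 ng as full-length cDNA and tagmented, per the labels' protocols, a chemistry that marks neither strand nor single molecules. The values are raw counts per gene as deposited by the authors, without normalization. The submitters' processing notes list the build GRCm39 with STAR 2.7.9a, featureCounts and Subread 2.0.1, fastp 0.23.1, bcl2fastq 2.19.1, and R 4.0.2 with DESeq2 1.28.1, with settings not given in the sources used here.

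Groups follow sex and condition as given in the titles. Genes were filtered by filterByExpr, leaving 15758 of 56832, scaled by TMM factors, and tested in R 4.3.3 by edgeR 4.0.16 (quasi-likelihood F test, robust dispersion). The main comparison fitted condition and sex over the 12 libraries, and the rest were contrasts between 4 group means, with Benjamini-Hochberg adjustment over all genes tested. CPM used library totals. Il34 was tested by an exact permutation test with a pseudocount of 0.5 CPM (SciPy 1.17.1). Lists covered partners, Csf1r signalling, Csf1r transcription, JAK and STAT signalling, shedding, and markers of macrophages, monocytes, neutrophils, eosinophils with basophils and mast cells, T and NK cells, dendritic cells, progenitors, B cells, stroma and red cell precursors. Text names the 10 members, 3 genes of lowest p per pathway list and 3 genes of nearest pattern per member above 5 CPM. Some genes that this rule takes are not reported here. Members and lists were chosen with earlier results of these data known.

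Alternatives were RLE size factors, DESeq2 1.42.0, limma-voom 3.58.1, no low-count filter, 5 CPM in 3 libraries, a 1.5-fold minimum change, a replicate block, no sex term or only the 6 libraries compared, and fits without 1 library or without both libraries that stood apart. On simulated data for the main comparison over 15343 genes, edgeR recovered 36% of genes changed 2-fold and 71% of those changed 4-fold, and 4.46% of 112 calls were false. DESeq2 made 158 calls on these data with 22.15% false. Far fewer genes were changed in the simulation than passed in the real libraries, and only the main comparison was simulated. These percentages thus need not hold for the real fits, and how many of the DESeq2 calls given here were false is not known. Replicates differed beyond sampling noise in all pairs (chi-square per degree of freedom of 23.95 or more).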

Additional observations from a re-analysis of the deposited data

Results flagged for a closer look

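Of the 18 sets of 6 libraries checked, 2 held a library far from the others by Dixon's test, which chance does in about 1 in 20 sets. Csf1r among non-leukemic libraries was highest in male replicate 3, at 1107 CPM, when the next was at 547 CPM and the lowest at 289.7 CPM, so that the gap was 0.685 of the whole range. Csf2rb among leukemic libraries was highest in female replicate 2, at 302 CPM, when the next was at 167 CPM and the lowest at 152 CPM, a gap of 0.901 of the range. In that library Csf2rb2, Il3ra, and the sums of the list of eosinophils, basophils and mast cells and of the progenitor list (1899 CPM) were also at their highest.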

How the results depend on the processing

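Leaving out 1 library gave 3 to 5 members past the threshold in the main comparison (4 with all libraries), 2 to 4 in males (3) and 1 to 4 in females (1). Calls over all genes moved as well in these fits. They ran from 2108 to 3910 in the main comparison, 513 to 2087 in males and 494 to 1772 in females. Against a 1.5-fold minimum change 2 members passed in the main comparison and 1 in males. In females DESeq2 called 3 members, no low-count filter 2, the 5 CPM filter 2, and leaving out both libraries that stood apart 4. Over such alternatives, all genes called ran from 477 to 2368 in females (1328 in the main fit) and from 495 to 2728 in males (1162). Changes in member counts are thus not particular to the members. Genes of all kinds numbered 2822 of 15758 in the main comparison, 978 of 15758 against a 1.5-fold change and 4717 of 16300 without both libraries. Csf1r did not pass without the low-count filter (adjusted p = 0.0529, edgeR) or against 1.5-fold (adjusted p = 0.221). Members far from passing changed sign: Flt3l (range -0.06 to 0.11) without male non-leukemic replicate 3, and at -0.04 without both libraries, Csf3r (-0.30 to 0.02) without that replicate, Csf2rb in males (-0.26 to 0.57) at -0.26 and -0.05 without non-leukemic replicates 1 and 2, and Kitl in females (-5.12 to 0.58) without non-leukemic replicate 3. The cause was not tested. With the replicate number as a block, 4 members passed in the main comparison, 3 in males and 1 in females, the same members as without it, and 0 in the comparisons with none. Same-numbered libraries deviated together in 0 of 18 pairs by a correlation above 0.1 (range -0.113 to 0.078). Other pairs did so in 1 of 36 (range -0.094 to 0.107). No pairing by number was seen, but with 3 libraries a group this check cannot show that there was none. Depth limits Il34, Csf2 and Kitl, whose counts per library reached 0 to 14 in leukemic libraries at the low end.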
